A study of Mus musculus with 6 samples.

Results

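The upper hair follicle, from the junctional zone below the sebaceous duct to the infundibulum that opens at the skin surface, was followed here through 7 marker genes in the epidermis of newborn mice. The 7 are the keratins Krt79, Krt75 and Krt23, the surface proteins Plet1 and Lrig1, the transcription factor Gata6 and the beta-defensin Defb6. They were picked by name as genes of the upper follicle, the infundibulum and the companion layer out of 55487 genes listed per library, and all 7 were found. They were proposed with the Znf750_cKO to control difference already known, so that difference is described for them below with no p-value. Genes entered the tests if 3 or more libraries had 1 FPKM or more, and 5 of the 7 met this limit. Krt75 and Defb6 did not, and Krt75, the companion layer marker of the set, stayed below 1 FPKM in every library.

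The series asks what Znf750 does in skin development, and compares 3 control libraries with 3 libraries from Znf750 conditional knockouts, labelled cKO and written Znf750_cKO here. Both groups were taken from the back skin of pups at postnatal day 0, with the epidermis lifted off after dispase and broken into single cells with trypsin. Neither the Cre driver nor the strain, the genotype of the controls or the number of pups behind a library is stated in the sources used here. No cell sort is named, and the labels do not say how much of each follicle came away with the epidermis.

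Values are FPKM, which scale reads to transcript length and to the library, so levels of different genes can be compared. The spacing of low values places the depth at 21450000 to 35400000 reads per library. The targeted gene, whose mouse symbol is Zfp750, had control levels of 44.8, 32.02 and 34.9 FPKM, against 0.99, 0.83 and 1.47 FPKM in Znf750_cKO. Keratinocyte genes were abundant, with Krt5 at 6275 to 6973 FPKM and Krt10 at 7397 to 14585 over all 6 libraries. Across the 13688 genes tested with limma on log2(FPKM + 1), 152 rose and 425 fell at an adjusted p under 0.05, and 248 rose and 265 fell when libraries were rescaled by median ratios. The labels do not say that the 3 libraries of a group came from separate animals, so the tests measure the spread between these libraries, which may be technical.

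Hair follicles grow down from the epidermis before birth, and their upper part later becomes a lasting canal that joins the skin surface, the sebaceous gland and the shaft. Krt79 marks cells that form the hair canal, Plet1 and Lrig1 mark stem and progenitor cells of the junctional zone, and Gata6 marks the upper follicle and sebaceous duct. Krt75 belongs to the companion layer, which lies between the inner and outer root sheaths. Lrig1 is also a membrane protein that dampens signalling by receptors of the EGF family, and beta-defensins are secreted antimicrobial peptides.

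The bases just upstream of the start of transcription are printed for 4 members, a pair that was lower in Znf750_cKO (Krt79 and Krt75) and a pair that was higher (Plet1 and Lrig1). They are RefSeq sequences of build GRCm38.p6, 250 bases each, 5′ to 3′ along the strand of the gene, at chr15:101940325-101940574 (minus strand) for Krt79, chr15:101573905-101574154 (minus) for Krt75, chr9:50494275-50494524 (plus) for Plet1 and chr6:94700146-94700395 (minus) for Lrig1. Capitals mark matches, on either strand, to CCNNAGGC, letters associated with binding of human ZNF750, to AGATAA, the core of sites bound by GATA factors, or to TATAAA, the TATA box.
Krt79: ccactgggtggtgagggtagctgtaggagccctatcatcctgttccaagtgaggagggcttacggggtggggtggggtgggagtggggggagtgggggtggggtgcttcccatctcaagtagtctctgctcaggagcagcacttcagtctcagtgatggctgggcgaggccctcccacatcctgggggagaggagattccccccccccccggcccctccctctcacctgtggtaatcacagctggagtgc
Krt75: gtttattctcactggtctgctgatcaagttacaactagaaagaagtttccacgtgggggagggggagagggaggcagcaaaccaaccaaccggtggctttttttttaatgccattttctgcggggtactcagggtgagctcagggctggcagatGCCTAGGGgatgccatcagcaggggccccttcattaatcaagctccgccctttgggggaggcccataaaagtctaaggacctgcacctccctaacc
Plet1: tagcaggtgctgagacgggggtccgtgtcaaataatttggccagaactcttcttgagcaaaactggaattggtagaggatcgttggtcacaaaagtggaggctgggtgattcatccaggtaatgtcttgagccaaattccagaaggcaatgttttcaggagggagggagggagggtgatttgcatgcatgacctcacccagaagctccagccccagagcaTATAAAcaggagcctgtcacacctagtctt
Lrig1: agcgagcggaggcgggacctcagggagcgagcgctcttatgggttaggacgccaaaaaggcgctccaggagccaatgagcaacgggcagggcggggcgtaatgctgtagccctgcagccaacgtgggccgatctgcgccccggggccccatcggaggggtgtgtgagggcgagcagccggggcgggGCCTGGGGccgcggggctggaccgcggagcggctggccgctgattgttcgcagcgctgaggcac
Krt79 held none of the 3 motifs in this window. Krt75 held 1 match to CCNNAGGC, beginning 96 bases before the start, and Lrig1 held 1 at 64 bases, so this motif occurred in a member that was lower and in one that was higher. Plet1 held TATAAA 30 bases before its start, and no match overlapped another motif. Among 32851 promoter windows of this length, 20.4% held CCNNAGGC, 9.99% AGATAA and 12.4% TATAAA. GC content was 64.0% for Krt79, 53.6% for Krt75 and 71.6% for Lrig1.

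Krt79 was the most abundant of the 7 markers in every library and was lower in Znf750_cKO. It measured 414, 392 and 238 FPKM in control replicates 1, 2 and 3, and 123, 148 and 125 FPKM in Znf750_cKO replicates 1, 2 and 3. All Znf750_cKO libraries lay below all control libraries, and control replicate 3 was the control closest to them. The mean went from 348 ± 95.8 to 132 ± 13.9 FPKM (SD, n = 3 per group), 2.63-fold lower, a difference of -1.35 on the log2(FPKM + 1) scale (SE 0.21). Leaving out control replicate 3 gave a difference of -1.61, and the other single libraries gave -1.21 to -1.44. Krt79 (ENSMUSG00000061397) lies on chromosome 15 at 101929332 to 101940324, minus strand, in GENCODE M21 on GRCm38.

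Krt75 was also lower in Znf750_cKO, but rested on few reads. Its level was 0.90, 0.35 and 0.16 FPKM in control and 0.04, 0.08 and 0.07 FPKM in Znf750_cKO. With the estimated depths and its single annotated transcript of 3266 bases, these values correspond to about 81.1, 23.8 and 11.8 reads in control and 4.5, 6.7 and 5.1 in Znf750_cKO. The groups did not overlap, and the controls spanned a wider range than the distance between control replicate 3 and the knockout libraries. The ratio of means was 7.42-fold, and the log2(FPKM + 1) difference, which is compressed at this level, was -0.44 (SE 0.20, from the fit with no filter on low values). It was -0.24 without control replicate 1. The gene (ENSMUSG00000022986) lies on chromosome 15 at 101563345 to 101573904, minus strand, away from Krt79 but in the same keratin cluster.

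Defb6 was read only in control libraries. The levels there were 1.41, 0.83 and 0.19 FPKM, and it was listed at 0 in each of the 3 Znf750_cKO libraries. On its transcript of 323 bases the control values come to about 9.0, 4.0 and 1.0 reads, so control replicate 3 held a single read. No fold is given against a group at 0, and at this depth a low level in Znf750_cKO would not have been detectable. Defb6 (ENSMUSG00000050756) lies on chromosome 8 at 19225478 to 19228209, plus strand.

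Gata6 split the Znf750_cKO libraries. It measured 1.37, 1.63 and 1.36 FPKM in control, and 0.20, 0.37 and 1.92 FPKM in Znf750_cKO replicates 1, 2 and 3. Knockout replicates 1 and 2 were far below every control and replicate 3 was above every control, so the groups overlapped. The means were 1.45 ± 0.15 and 0.83 ± 0.95 FPKM (SD, n = 3 per group), with a log2(FPKM + 1) difference of -0.54 (SE 0.33). Without Znf750_cKO replicate 3 the difference was -0.93, and without Znf750_cKO replicate 1 it was -0.29. Gata6 (ENSMUSG00000005836) lies on chromosome 18.

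**Figure D1:**
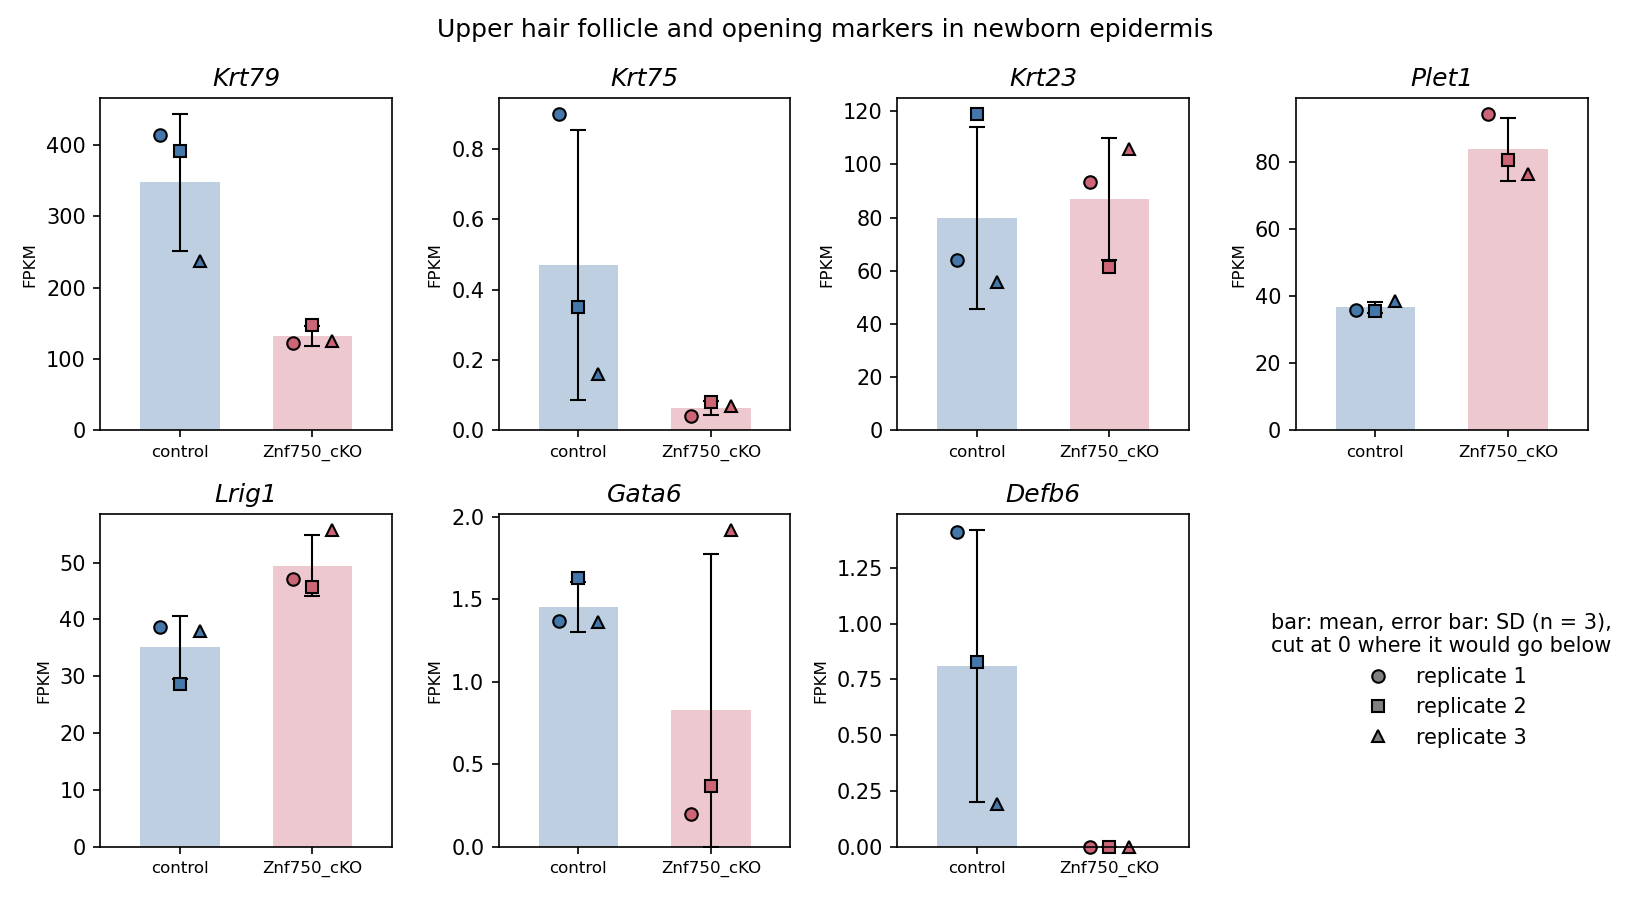
FPKM of the 7 markers in 3 control (blue) and 3 Znf750_cKO (red) libraries, with bars for group means, error bars for SD and a symbol for each replicate number. Krt79, Krt75 and Defb6 are lower and Plet1 and Lrig1 higher in all Znf750_cKO libraries, Krt23 overlaps, and Gata6 has 1 knockout library at 1.92 FPKM, above all controls.

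Plet1, a surface protein anchored by a lipid tail, differed in the opposite direction to Krt79. It measured 35.8, 35.7 and 38.6 FPKM in control and 94.3, 80.6 and 76.4 FPKM in Znf750_cKO. The controls were within a narrow band, with an SD of 4.55% of their mean, and every knockout library was above them. The mean was 2.28-fold higher in Znf750_cKO, 83.8 ± 9.37 against 36.7 ± 1.67 FPKM (SD, n = 3 per group), a log2(FPKM + 1) difference of 1.16 (SE 0.11). Single libraries left out moved it between 1.08 and 1.23. Plet1 (ENSMUSG00000032068, chromosome 9, 50494525 to 50505482, plus strand) overlaps the antisense gene Plet1os, which was listed at 0.05 to 0.31 FPKM in control, and at 1.5, 0.23 and 1.0 FPKM in the knockout libraries. Whether the counting used strand is not known from the sources, and without it reads of the 2 genes cannot be told apart.

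Lrig1 was higher by a smaller step. It measured 38.6, 28.7 and 38.0 FPKM in control and 47.1, 45.7 and 55.7 FPKM in Znf750_cKO. The lowest knockout library exceeded the highest control, and the gap between them was smaller than the full range of the controls. The mean went from 35.1 ± 5.58 to 49.5 ± 5.45 FPKM (SD, n = 3 per group), 1.41-fold, with a log2(FPKM + 1) difference of 0.49 (SE 0.14). Lrig1 (ENSMUSG00000030029, chromosome 6, 94604529 to 94700158, minus strand) overlaps Slc25a26 on the other strand, which encodes a mitochondrial carrier. Slc25a26 was also higher in every knockout library, at 4.22 to 5.54 FPKM in control and 6.27 to 6.60 in Znf750_cKO (1.31-fold, limma adjusted p = 0.20). The 2 spans share only the stretch from 94604529 to 94604672, and the limit on strand reaches only reads from that stretch.

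Krt23, a type I keratin, varied as much within groups as between them. It measured 64.2, 119 and 56.0 FPKM in control and 93.4, 61.5 and 106 FPKM in Znf750_cKO. The highest value of all was a control and the groups overlapped over most of their range. The means were 79.7 ± 34.3 and 87.0 ± 22.9 FPKM (SD, n = 3 per group), and the log2(FPKM + 1) difference of 0.17 (SE 0.35) was smaller than its error. Its sign turned when control replicate 3 was dropped (-0.04) and when replicate 3 was dropped from both groups (-0.20). On chromosome 11 the gene (ENSMUSG00000006777) runs from 99477974 to 99493137 on the minus strand.

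Among the 5 markers that passed the filter, Krt79, Plet1 and Lrig1 had groups that did not overlap, as did 28.0% of all tested genes, 8.28% with Znf750_cKO higher and 19.7% with it lower. Since the members were chosen with this contrast in view, nothing is read from that count. The 7 markers did not differ in 1 direction: Krt79, Krt75 and Defb6 were lower in all Znf750_cKO libraries, Plet1 and Lrig1 were higher in all, and Gata6 and Krt23 overlapped.

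The order of the levels changed with genotype. In control, Krt79 stood highest, Krt23 followed, and Plet1 and Lrig1 came next with ranges that overlapped each other. Gata6 at 1.36 to 1.63, Defb6 at 0.19 to 1.41 and Krt75 at 0.16 to 0.90 FPKM were lowest, and the ranges of Defb6 overlapped those of both others. In Znf750_cKO, Krt79 still stood highest, at 123 FPKM or more against at most 106 for Krt23. Plet1, at 76.4 to 94.3, then lay within the range of Krt23, at 61.5 to 106, and above that of Lrig1, at 45.7 to 55.7.

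Ratios between markers of the same library do not depend on how the library is scaled. Krt79 exceeded Plet1 by 11.58-, 10.97- and 6.16-fold in control and by 1.30-, 1.84- and 1.64-fold in Znf750_cKO. It exceeded Lrig1 by 10.7-, 13.7- and 6.26-fold in control and by 2.61-, 3.24- and 2.25-fold in Znf750_cKO. Plet1 was near Lrig1 in control, at ratios of 0.93, 1.25 and 1.02, and above it in Znf750_cKO, at 2.0, 1.76 and 1.37. Krt79 exceeded Krt23 by 6.45-, 3.29- and 4.25-fold in control and by 1.32-, 2.41- and 1.18-fold in Znf750_cKO. None of these 4 ratios overlapped between the groups. The members were chosen with this contrast in view, and every ratio but Plet1 over Lrig1 contains Krt79. Nothing is therefore read from that count. The control closest to the knockouts was replicate 3 for Krt79 over Plet1 and over Lrig1, and replicate 2 for Krt79 over Krt23.

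**Figure D2:**
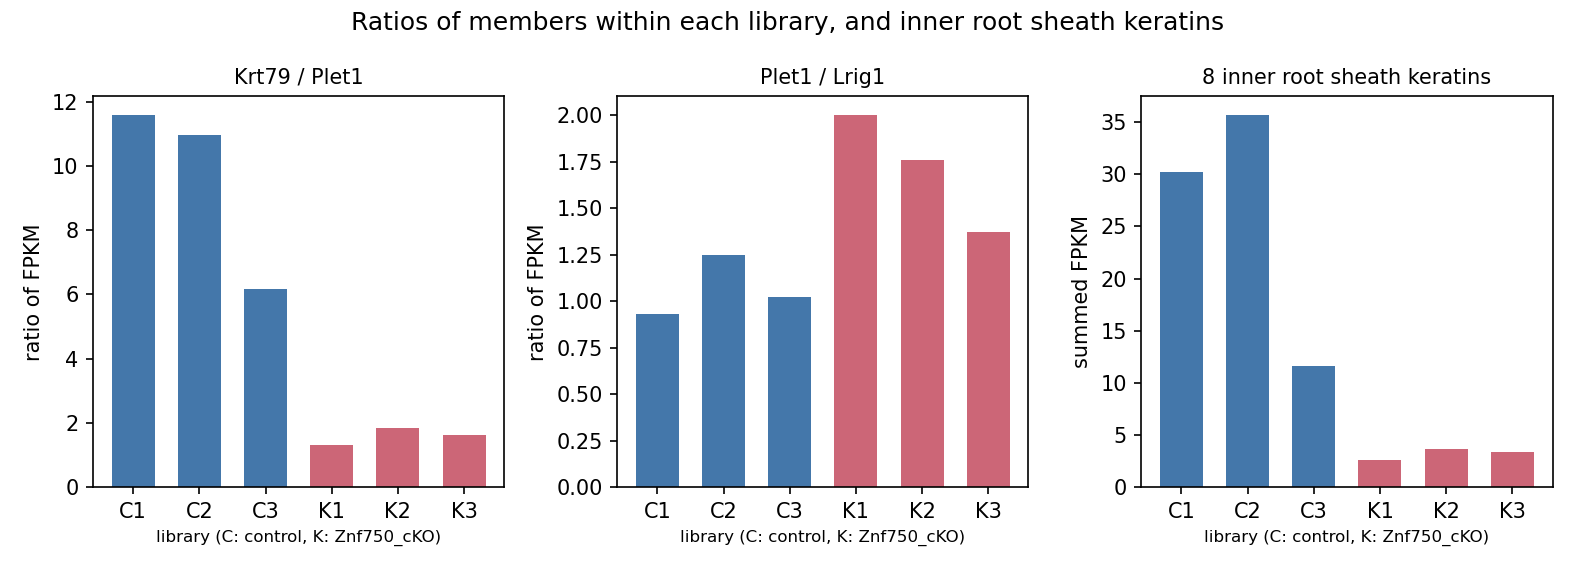
Ratio of Krt79 to Plet1 FPKM, ratio of Plet1 to Lrig1 FPKM, and summed FPKM of 8 inner root sheath keratins in control (C1 to C3, blue) and Znf750_cKO (K1 to K3, red) libraries, 1 bar each. Krt79 to Plet1 is 6.16 or more in control and 1.84 or less in Znf750_cKO, and C3 is the lowest control in that ratio and in the keratin sum, which leaves out Tchh and the other non-keratin genes of that layer.

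Control replicate 3 was also low in keratins of another follicle layer. The 8 inner root sheath keratins Krt25, Krt26, Krt27, Krt28, Krt71, Krt72, Krt73 and Krt74 summed to 30.2, 35.7 and 11.7 FPKM in control replicates 1, 2 and 3 and to 2.57, 3.71 and 3.36 FPKM in Znf750_cKO. The sum over the whole inner root sheath list of 12 genes did not follow its keratins. It was 113.4, 113.5 and 91.7 FPKM in control and 178.0, 158.2 and 109.1 in Znf750_cKO, where Tchh was 5.64-fold higher. It also holds Cux1 and Gata3, and Gata3 alone stood at 49.4 to 57.5 FPKM in control and 50.2 to 56.6 in Znf750_cKO. Padi3, too low to test, measured 1.18, 0.96 and 0.42 FPKM in control and 0.15, 0.16 and 0.15 in Znf750_cKO. Control replicate 3 was therefore lowest among controls for Krt79, Krt75, Krt23, Defb6 and the keratin sum, and for Gata6 by 0.01 FPKM, but not for Plet1 or Lrig1. The part of this library in the group differences is seen in the values without it, given above for Krt79 and Krt23. In bulk RNA, fewer cells of a type and less RNA per cell cannot be told apart, and how much of the follicle each suspension held was not measured.

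Other genes of the follicle, from lists that leave out the 7 markers, were tested over all genes, where 4.22% were called, 1.11% upwards and 3.1% downwards. In 7 follicle lists with 60 different tested genes, 4 rose, 5 fell and 51 did not pass. Their median log2 difference was -0.05, against -0.08 over all tested genes. With 1 library left out the lists held 1 to 5 genes that rose and 2 to 9 that fell. The 9 calls came from the other upper follicle genes, the outer root sheath, the bulge and the inner root sheath.

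Of 9 tested genes of the upper follicle list, 3 fell, 0 rose and 6 did not pass. Nebl, which encodes an actin-binding protein, measured 13.9, 11.4 and 11.2 FPKM in control and 5.84, 4.91 and 5.72 in Znf750_cKO (log2 change -1.02, limma adjusted p = 0.0098). The call for Nebl held whichever of the 6 libraries was dropped. Atp6v1c2, a subunit of the vacuolar proton pump, fell from 25.4 ± 6.62 to 10.4 ± 1.18 FPKM (SD, n = 3 per group; limma log2 change -1.19 with adjusted p = 0.018, or 0.0504 when replicates are blocked). Alox12e, a lipoxygenase, fell from 13.8 ± 4.43 to 4.47 ± 0.56 FPKM (SD, n = 3 per group; limma log2 change -1.40 with adjusted p = 0.019, or 0.058 when blocked). With the block, 1 of the 3 calls was left, that of Nebl. Only 1 gene fell without control replicate 1 or without Znf750_cKO replicate 1, and 2 fell without control replicate 2 or Znf750_cKO replicate 2. The most abundant gene of the list, Krt17, a keratin of the follicle and its buds, stood at 743 to 999 FPKM in control and at 794 to 853 in Znf750_cKO. Lgr6, a receptor of stem cells above the bulge, measured 20.4 to 33.1 FPKM in control and 32.9 to 39.3 in Znf750_cKO. The latter pair overlapped and did not pass.

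Of 7 tested genes of the outer root sheath and companion layer, Serpinb2 rose and 6 did not pass. Serpinb2, a protease inhibitor found in the companion layer, measured 64.1, 68.7 and 77.1 FPKM in control and 163, 145 and 128 in Znf750_cKO (log2 change 1.04, limma adjusted p = 0.0063), the opposite direction to Krt75. It is also a gene of differentiating epidermal keratinocytes, and its level was far above that of Krt75. When Znf750_cKO replicate 3 was dropped 3 genes of this list rose, and when replicate 3 was dropped from both groups 2 did.

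Of 12 tested genes of the bulge, the stem cell niche below the upper follicle, 2 rose and 10 did not pass. Their median log2 difference was -0.01, with 6 positive and 6 negative. All Znf750_cKO libraries lay above all controls for 4 of the 12 and below them for 2, against 8.28% and 19.7% of all tested genes. The 2 lower were Tcf7l1 and Nfatc1 (limma adjusted p = 0.093 and 0.14). Krt15, the most abundant, overlapped, at 2014 to 2329 FPKM in control and 1393 to 2108 in Znf750_cKO. The transcription factor Lhx2 measured 26.3, 26.02 and 22.1 FPKM in control and 41.3, 45.5 and 43.1 in Znf750_cKO (log2 change 0.78, limma adjusted p = 0.011). The WNT inhibitor Sfrp1 rose from 2.72 ± 0.28 to 5.02 ± 0.44 FPKM (SD, n = 3 per group; limma log2 change 0.69 with adjusted p = 0.039, or 0.057 when blocked), but lost its call with any of the 6 libraries dropped. Lhx2 passed in 5 of the 6, all but that without Znf750_cKO replicate 1.

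Of 7 tested genes of the inner root sheath, the layer that guides the growing shaft, 2 fell, 1 rose and 4 did not pass. Krt27 measured 7.11, 9.23 and 4.16 FPKM in control and 0.47, 0.68 and 0.60 in Znf750_cKO (log2 change -2.25, limma adjusted p = 0.0055). Krt71 measured 6.90, 9.46 and 3.63 FPKM in control and 0.38, 0.63 and 0.58 in Znf750_cKO (log2 change -2.25, limma adjusted p = 0.0087). Krt27 and Krt71 reached 1 FPKM in control libraries only, so they entered the test through the group where they were higher. In the limma fit with no filter on low values their adjusted p was 0.036 and 0.055. Tchh, which encodes trichohyalin of the same layer, rose from 14.2 ± 1.93 to 80.2 ± 33.4 FPKM (SD, n = 3 per group; log2 change 2.33, limma adjusted p = 0.027), and held its call with 1 of the 6 libraries dropped, Znf750_cKO replicate 3. Dropping control replicate 3, alone or with its knockout counterpart, left 4 genes of this list that fell, and dropping Znf750_cKO replicate 1 left 1.

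**Figure D3:**
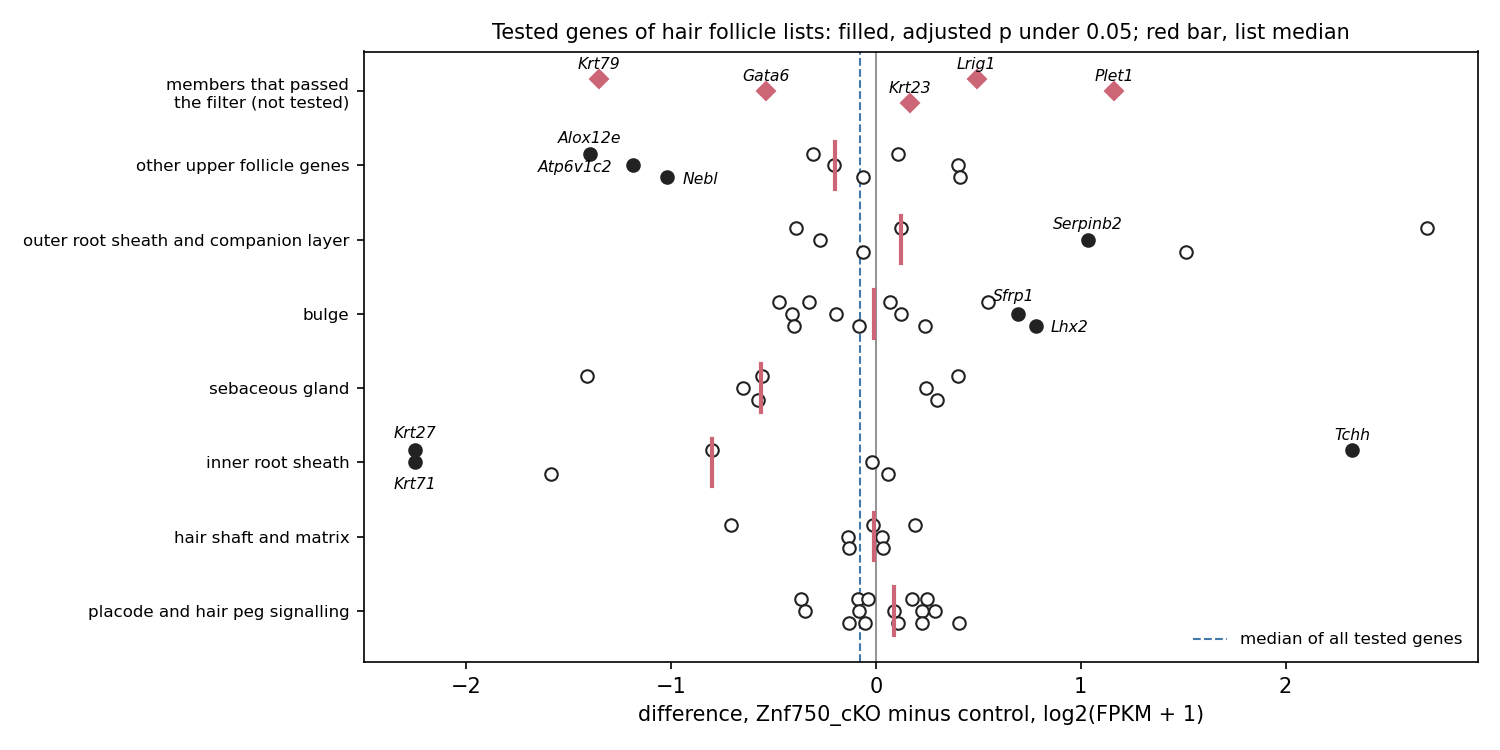
Difference between Znf750_cKO and control, in log2(FPKM + 1), for the 5 markers that passed the filter (diamonds, not tested) and the tested genes of 7 follicle lists (circles, filled where limma's adjusted p was under 0.05). Red bars give list medians and the dashed line the median of all tested genes, -0.08; called genes of the upper follicle list are all lower, and those of the bulge and outer root sheath lists higher.

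The other follicle lists gave no call. Of 15 sebaceous gland genes 8 were too low to test, and among the 7 tested limma called 0, with 3 at an unadjusted p under 0.05 and a median log2 difference of -0.56. All Znf750_cKO libraries lay below all controls for 2 of the 7 tested genes and above them for 1, against 19.7% and 8.28% of all tested genes. With the 8 genes too low to test counted as well, 7 of the 15 lay below all controls and 1 above. The shares just given cover tested genes only, so they are no background for that count. The 15 genes summed to 54.9 to 87.4 FPKM in control and 69.9 to 82.9 in Znf750_cKO. Awat1, a wax synthase, measured 3.11, 4.76 and 1.49 FPKM in control and 0.18, 0.26 and 1.11 in Znf750_cKO (log2 difference -1.41, limma adjusted p = 0.071). Mgst1, the most abundant of the list, overlapped, at 15.9 to 30.2 FPKM in control and 20.7 to 39.0 in Znf750_cKO. Among 7 tested genes of the hair shaft and matrix limma called 0, with 1 at an unadjusted p under 0.05. Lef1, a WNT effector of the matrix, stood at 16.6 to 26.2 FPKM in control and 15.3 to 23.6 in Znf750_cKO. None of the analysed genes in this list encodes a keratin-associated protein. Of those near Krt23, Krtap3-2 fell, as given below. Krtap3-1 and Krtap3-3, too low to test, were lower in every knockout library. Krtap3-1 measured 1.74, 2.21 and 0.59 FPKM in control and 0 in each Znf750_cKO library. Krtap3-3 measured 2.03, 3.38 and 0.81 against 0, 0 and 0.10. Krtap1-4 overlapped. Among 15 genes of placode and hair peg signalling limma called 0, with 1 at an unadjusted p under 0.05. Ptch1, the hedgehog receptor, stood at 60.7 to 77.0 FPKM in control and 68.6 to 103 in Znf750_cKO, and its ligand Shh at 15.3 to 20.1 and 20.5 to 23.5. In the sebaceous gland list 2 genes fell when control replicate 3 was dropped, and 1 when replicate 3 was dropped from both groups.

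Both Krt79 and Krt75 lie in the type II keratin cluster of chromosome 15, where neighbours moved in opposite directions. Of 17 tested genes within 250 kb of Krt79, 3 rose, 2 fell and 12 did not pass, with a median log2 difference of 0.23. With 1 library dropped, 2 to 5 rose, 5 of them without Znf750_cKO replicate 3, and 0 to 2 fell, 0 of them without Znf750_cKO replicate 1. Krt8, a keratin of simple epithelia 56.4 kb away, measured 3.65, 3.58 and 3.13 FPKM in control and 239, 282 and 201 in Znf750_cKO (log2 change 5.75, limma adjusted p = 1.8e-06). Krt2, a keratin of upper epidermal layers 111 kb away on the other side, had a log2 change of 7.62, and the Krt8 partner Krt18, 87.9 kb away, of 1.19. Krt78, the nearest tested gene at 5.7 kb, fell with a log2 change of -1.02 (limma adjusted p = 0.030, or 0.0502 when blocked and 0.055 with median-ratio scaling), and Krt71 at 186 kb fell as above. Krt78 and Krt18 each held their call with only 1 of the 6 libraries dropped, control replicate 3 for Krt78 and Znf750_cKO replicate 3 for Krt18. Krt1, 78.5 kb away, and Krt77, 59.6 kb away, did not pass, with log2 differences of 0.17 and 0.24. Krt79 therefore sat between a pair of strongly raised keratins while being lower itself. RSEM, named in the submitters' notes, divides reads that fit several genes, so the levels of close keratin relatives are uncertain one by one.

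**Figure D4:**
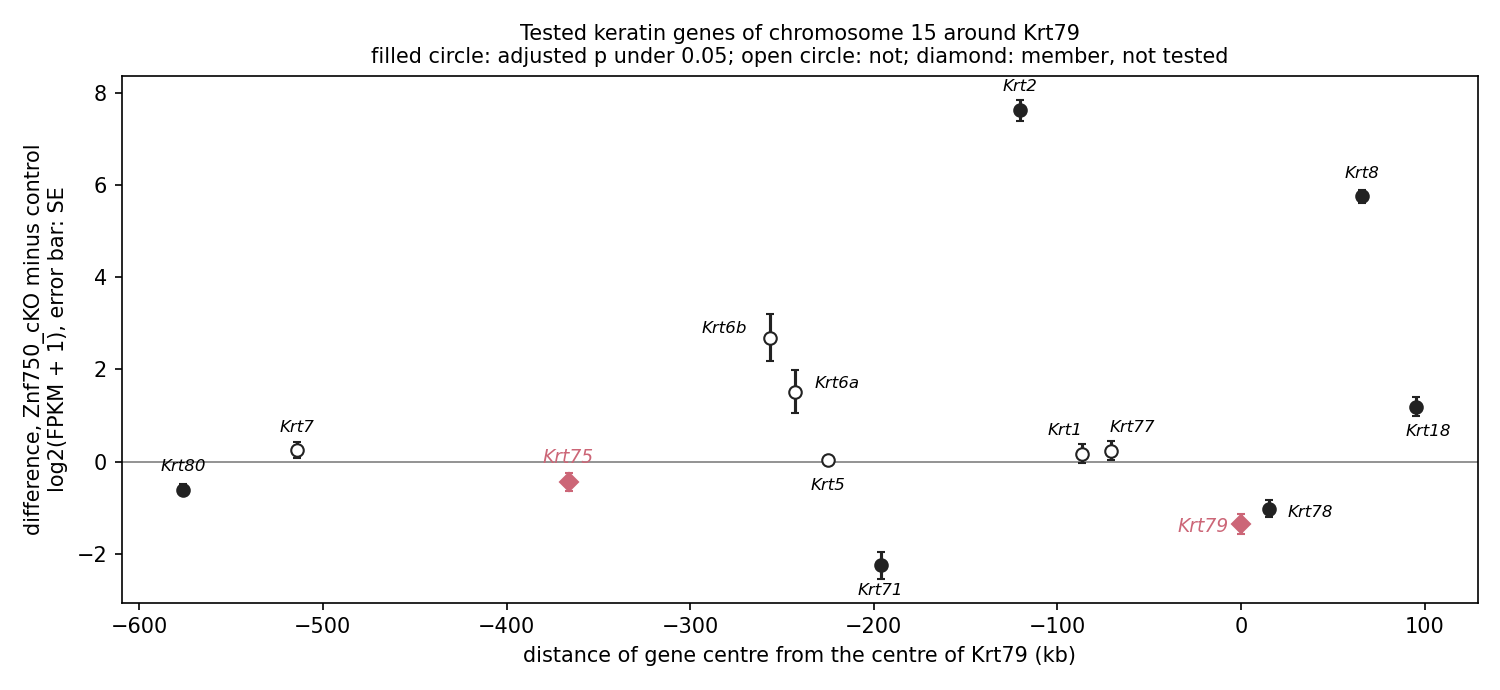
Difference between Znf750_cKO and control in log2(FPKM + 1), with SE, for tested keratin genes of chromosome 15 against their distance from Krt79 in kb; Krt79 and Krt75 are diamonds, and Krt75 did not pass the filter on low values. Krt2 and Krt8, on either side of Krt79, are at 7.62 and 5.75 while Krt79 is at -1.35.

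Around Krt75, 12 genes within 250 kb were tested, of which Krt2 rose, Krt71 and Krt80 fell and 9 did not pass. With 1 library dropped, 1 to 3 rose, 3 of them without Znf750_cKO replicate 3, and 0 to 2 fell, 0 of them without Znf750_cKO replicate 1. Krt6b and Krt6a, keratins of follicle and activated epidermis, did not pass but were higher in every knockout library. Krt6b measured 5.69, 13.8 and 10.04 FPKM in control and 44.6, 51.4 and 122.3 in Znf750_cKO (limma adjusted p = 0.058), and Krt6a 15.6, 21.3 and 16 against 38.3, 34.02 and 105.1 (limma adjusted p = 0.16). Krt80, a keratin of differentiating cells 193 kb away, fell from 65.1 ± 7.78 to 42.2 ± 3.69 FPKM (SD, n = 3 per group; log2 change -0.61, limma adjusted p = 0.035, or 0.069 when blocked and 0.077 with median-ratio scaling), and held its call with 2 of the 6 libraries dropped, control replicate 3 and Znf750_cKO replicate 3. Around Krt23 on chromosome 11, 3 of 9 tested genes fell and 6 did not pass, and 1 fell without Znf750_cKO replicate 1. These were Krt27 as above, Krt12, a keratin best known from the cornea, from 2.04 ± 0.50 to 0.23 ± 0.10 FPKM (SD, n = 3 per group; limma adjusted p = 0.015), and the hair shaft gene Krtap3-2, from 17.0 ± 6.85 to 5.28 ± 0.68 FPKM (SD, n = 3 per group; limma adjusted p = 0.025). With each of the 6 libraries dropped in turn, Krt12 held its call 3 times and Krtap3-2 did so 2 times. Krt12 also reached 1 FPKM in control libraries only, and with no filter on low values its limma adjusted p was 0.073. Krt23 itself overlapped between groups while these neighbours were lower. Within 250 kb of Plet1, limma called 0 of 12 tested genes, with 0 at an unadjusted p under 0.05, and the median log2 difference of these neighbours was -0.03. The most abundant of them, Rpl10-ps3, stood at 1375 to 1474 FPKM in control and 1289 to 1654 in Znf750_cKO, and as a pseudogene may hold reads of its parent gene. Slc25a26 beside Lrig1, Mib1 beside Gata6 and Defb14 beside Defb6 were the single tested neighbours, and none of the 3 passed.

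Relatives of the markers gave a like mix. Among 50 other keratin genes 25 were tested, of which 3 rose, 5 fell and 17 did not pass, with a median log2 difference of 0.02. The 5 that fell were Krt27, Krt71, Krt12, Krt78 and Krt80, and 3 fell with the block, 3 with median-ratio scaling and 1 to 6 with a library dropped. Of 5 other Gata factors only Gata3 was tested, a factor of epidermis and inner root sheath, at 49.4 to 57.5 FPKM in control and 50.2 to 56.6 in Znf750_cKO. Gata3 exceeded Gata6 by more than an order of magnitude in every library. Of 42 other beta-defensins, Defb1 and Defb14 were tested. Defb1 stood at 27.6 to 38.9 FPKM in control and 26.3 to 43.4 in Znf750_cKO. Defb14, 30.3 kb from Defb6, measured 8.61, 20.6 and 8.40 FPKM in control and 4.53, 1.78 and 11.5 in Znf750_cKO, with groups that overlapped (limma adjusted p = 0.42).

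Lrig1 was set beside the receptors of the EGF family and their ligands. Of 12 tested genes of the ErbB list, 1 rose and 11 did not pass. Epgn, which encodes the EGF family ligand epigen, measured 1.74, 1.72 and 1.86 FPKM in control and 7.12, 6.61 and 8.68 in Znf750_cKO (log2 change 1.6, limma adjusted p = 0.0024). The call for Epgn held whichever of the 6 libraries was dropped. The receptors did not pass: Egfr stood at 9.63 to 15.7 FPKM in control and 9.15 to 17.9 in Znf750_cKO, Erbb2 at 30.3 to 36.9 and 32.5 to 34.5, and Erbb3 at 22.0 to 28.9 and 28.8 to 44.5. The ligand betacellulin, Btc, stood at 16.7 to 30.9 FPKM in control and 5.79 to 13.5 in Znf750_cKO, and did not pass. The relatives Lrig2 and Lrig3 did not pass either, and Lrig3 stood at 16.6 to 18.4 FPKM in control and 15.3 to 19.6 in Znf750_cKO.

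For each marker with a mean of at least 1 FPKM, the 3 genes with the most similar pattern over the 6 libraries were taken from about 11930 genes by Pearson correlation of log2(FPKM + 1). These correlations describe 6 points that share a genotype split and carry no p-value. The genes were picked for this likeness, so a shared level or order of libraries below follows from the choice and is no separate result. Krt79 was followed most closely by B2m, the light chain of MHC class I (r = 0.998), at 101, 97.8 and 67.9 FPKM in control and 38.0, 47.5 and 41.2 in Znf750_cKO. Blnk, an adaptor of B cell receptor signalling (r = 0.995), and the zinc finger gene Zbtb14 (r = 0.993) came next. Plet1 was followed by Grhl3, a grainyhead factor of epidermal differentiation (r = 0.997), by the sorting nexin Snx33 (r = 0.994) and by Serpinb2 (r = 0.994). Grhl3 measured 18.6, 19.8 and 20.1 FPKM in control and 40.6, 35.3 and 32.9 in Znf750_cKO. Lrig1 was followed by the repair nuclease Ercc5, the homeobox gene Irx2 and the cap methyltransferase Rnmt, with r from 0.997 to 0.999. Irx2 measured 205, 168 and 206 FPKM in control and 242, 230 and 273 in Znf750_cKO, with control replicate 2 lowest, as for Lrig1. Krt23 was followed by the protocadherin Pcdh1 (r = 0.992), AC122306.1 and Msantd3. Gata6 was followed by Arhgap23 (r = 0.997), Gm13306 and the chemokine gene Ccl27b, and Ccl27b repeated its split, with 0.52, 1.08 and 3.42 FPKM in Znf750_cKO against 2.39 to 3.33 in control. Ccl27b and Gm13306 belong to near-identical copies, so their levels are uncertain one by one.

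Markers of other cells differed between the groups in part. The 8 markers of Langerhans cells and macrophages summed to 119 to 188 FPKM in control and to 15.3 to 18.4 in Znf750_cKO, and all 7 that were tested fell. Of these, Adgre1 and Lyz2 reached 1 FPKM in control libraries only. With no filter on low values their limma adjusted p was 0.10 and 0.014. Tyrobp measured 34.4, 29.5 and 26.3 FPKM in control and 3.30, 4.22 and 4.05 in Znf750_cKO, and C1qb, a complement gene of macrophages, 33.7, 24.9 and 24.8 against 4.29, 3.74 and 3.48. Cd207, the defining Langerhans cell gene, was at most 0.06 FPKM in any library. The 3 erythroid markers summed to 7.86 to 27.5 FPKM in control and 2.87 to 6.76 in Znf750_cKO without overlap, and 0 of 2 tested passed limma, with 1 at an unadjusted p under 0.05, Hbb-bs (10.8 ± 5.91 against 2.65 ± 1.46 FPKM). The T cell gene Cd3g was lower in every knockout library, at 2.36 to 3.07 FPKM in control and 0.68 to 2.27 in Znf750_cKO, and did not pass (limma adjusted p = 0.16). The other 2 T cell markers were too low to test and overlapped between groups. The list of 3 summed to 3.52 to 4.19 FPKM in control and 1.01 to 4.04 in Znf750_cKO, also with overlap. Krt20 of Merkel cells was also lower in every knockout library, at 1.02 to 1.43 FPKM in control and 0.56 to 0.91 in Znf750_cKO, and did not pass (limma adjusted p = 0.32). The other 4 Merkel cell markers were too low to test. The 5 together overlapped, with sums of 2.99 to 4.10 FPKM in control and 2.15 to 3.58 in Znf750_cKO. The part of these cells in the lower levels of Krt79, Krt75, Defb6 and B2m was not tested. The 5 fibroblast markers summed to 132.8 to 158.5 FPKM in control and 113.1 to 170.6 in Znf750_cKO, most of it Dcn, at 126.1 to 152.5 and 104.6 to 164.45, while Col1a2 stood at 3.56 to 4.73 and Col1a1 at 0.21 to 0.59 over all libraries. Pecam1 of the endothelial list varied within both groups, at 9.34 to 25.1 FPKM in control and 5.46 to 31.06 in Znf750_cKO. The other endothelial markers did not accompany it, with Cdh5 at most 0.04 and Kdr at most 0.10 FPKM in any library. Of the 4 dermal papilla markers the sum was 0.80 to 2.03 FPKM in control and 1.2 to 1.75 in Znf750_cKO, with Sox18 the most abundant tested, at 0.70 to 1.30 and 0.84 to 1.29. The melanocyte markers, from cells that sit in the epidermis and follicle, summed to 76.4 to 137 FPKM in control and 94.8 to 110 in Znf750_cKO, with Dct at 40.9 to 74.5 and 54.6 to 57.2, and 0 of 5 passed limma, with 0 at an unadjusted p under 0.05. In the periderm list, genes of the simple layer that covers the embryonic epidermis, Krt8, Krt18 and Grhl3 rose among 6 tested and 3 did not pass. Of the 6, 5 had positive log2 differences and Arhgap29 a negative one (-0.47, not passed). Krt13 and Krt4, too low to test, had means of 1.13 and 0.52 FPKM in control and 0.27 and 0.25 in Znf750_cKO. The list summed to 44.6 to 53.6 FPKM in control and 260 to 345 in Znf750_cKO, where most of it was Krt8.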

How the data were processed

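Messenger RNA of 6 epidermal libraries was analysed, 3 per group, grouped by sample title. The authors deposited FPKM per gene, per the file headers. STAR 2.5.2a and RSEM 1.2.28 are named in the submitters' processing notes, with builds GRCm38 and mm10, but the notes give no role for either. The annotation and the strand are not stated there.

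From these values, limma 3.58.1 (R 4.3.3, statmod 1.5.0; intensity trend, robust variances) compared the groups on log2(FPKM + 1), with no covariate. A gene was tested if 3 or more libraries had 1 FPKM or more, and is said to have risen or fallen where p, adjusted by Benjamini-Hochberg, was under 0.05. Fold changes on this scale understate changes of low genes. The fit was first tested on simulated data. Depth was estimated from the steps of FPKM in genes with 1 transcript, with reads taken as 100 bases long. Of many depths tried, the one at which most low values came out whole was kept. At that depth 58.5% to 68.3% of low values were whole to within 0.1 read. The 20% expected by chance holds for a depth fixed beforehand, so it does not test the depth kept.

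Symbols matched 55141 identifiers, and 1 listed hair shaft gene is not analysed here. GENCODE M21 on GRCm38 gave positions, and plots used matplotlib 3.10.9.

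The members and the gene lists were chosen with earlier results of these data known. Named genes were the members, Zfp750, from each list, family or neighbourhood the 2 changed genes with the smallest p in each direction or else its most abundant tested gene, and the 3 most similar genes per member. Krt17, Lgr6, Shh, Btc, Alox12e, Krt18, Krt1, Krt77, Krtap3-2, the ErbB receptors, Lrig2, Awat1, Krt6a, Krt6b, Col1a1, Col1a2, Cd207 and Krt5 were named after their values were seen. So were Cdh5, Kdr, Tcf7l1, Nfatc1, Krt15, Arhgap29, Krt13 and Krt4.

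Labels number replicates 1 to 3 in both groups. After group means were removed, like-numbered libraries correlated across genes at 0.31, 0.17 and 0.48, and unlike-numbered ones at -0.39 to 0.24, with control 1 and Znf750_cKO 2 at 0.24, above the like-numbered pair 2. All like-numbered values were over 0.1, so a second fit blocked on that number. This pairing rests on the data, and the meaning of the numbers is not stated. Other alternatives were pseudocounts of 0.1 and 0.5, other filters, median-ratio and TPM scaling, and leaving out libraries.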

Additional observations from a re-analysis of the deposited data

How the results depend on the processing

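Of all tested genes 577 changed, 85 did with no filter on low values, where 35621 genes were tested, and 100 to 356 with 1 library left out. With the replicate block 392 changed. In the follicle lists together 4 genes rose, against 1 with no filter and 1 to 5 with a library left out. In the same lists 5 fell, against 3 with a minimum of 5 FPKM, 1 with no filter, 8 without replicate 3 of both groups, 3 with the replicate block, and 2 to 9 with a library left out. The differences of the members stay the same with the block, which is balanced. A smaller pseudocount widened those of the low members: on the log2 scale Krt75 went from -0.44 to -0.71 and -1.59 with pseudocounts of 0.5 and 0.1, Defb6 from -0.80 to -1.27 and -2.89, and Gata6 from -0.54 to -1.23 with 0.1. Median-ratio scaling shifted Krt79 to -1.25, Plet1 to 1.27 and Lrig1 to 0.60. Krt23 was the only member whose sign turned. FPKM carry no counts, and for Krt75 and Defb6 the few reads limit what can be said.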
